A study of Homo sapiens with 24 samples.

Results

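Tissue kallikreins are secreted serine proteases encoded side by side on chromosome 19. The 8 genes described here are KLK5, KLK6, KLK7, KLK8, KLK10, KLK11, KLK12 and KLK13, out of 19775 genes that the array annotation names. Each gene is represented by a probe set annotated to it alone, and where it has several, by the one with the highest mean over the 24 arrays. The values are log2 RMA levels, in which a difference of 1 is a doubling of array signal. A level under 5 is called near background here, and a gene was tested if it reached 5 in at least 3 arrays.

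All samples were BT-474 cells, a long-used line from a human breast tumour that carries extra copies of ERBB2 and expresses the estrogen receptor. The cells carried either an siRNA against HER2, the receptor tyrosine kinase encoded by ERBB2, or a control siRNA, and every group therefore received an siRNA. Within each siRNA they were given 10 nM estrogen or vehicle, which was 0.001% ethanol, for 4 or 24 h, which made 8 groups of 3 arrays. The labels do not say whether the arrays of a group came from separate cultures, so p-values measure the spread between these arrays only. For HER2 siRNA estrogen 4 h replicate 3 the source name gives 24 h and every other label 4 h. It was placed at 4 h.

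ERBB2 levels were 11.86 to 12.69 in the 12 HER2 siRNA arrays and 13.39 to 13.94 in the 12 control siRNA arrays, so the targeted transcript was lower but still high on the array scale. The siRNA difference was -1.09 ± 0.11 in estrogen at 24 h and -1.34 to -1.56 in the other conditions, and in control siRNA cells estrogen at 24 h itself lowered ERBB2 (-0.46 ± 0.11, adjusted p = 0.00770). The 8 luminal breast epithelial markers had mean levels of 9.01 to 13.4, and markers of other cells were mixed. Means under 5 were found for 1 of 2 leukocyte markers (PTPRC; CD3E at 5.28), 1 of 3 endothelial (CDH5; PECAM1 at 5.81 and VWF at 7.28), 3 of 4 fibroblast (COL1A2, COL3A1 and PDGFRB; COL1A1 at 9.58) and 3 of 6 basal and mesenchymal ones (KRT5, KRT14 and ZEB1; TWIST1 at 10.0). Arrays of the same group correlated at 0.991 to 0.997, and array medians ran from 5.28 to 5.36. The number of arrays limits the precision.

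Kallikreins are made as inactive zymogens. They are secreted, lose a short propeptide to a trypsin-like protease, often another kallikrein, and are held in check by serpins and Kazal-type inhibitors. Most cut after arginine or lysine as trypsin does, and KLK7 cuts after aromatic residues as chymotrypsin does. In skin KLK5 and KLK7 degrade the junctions between cornified cells, and in prostate several family members respond to androgen. Steroid hormones are known to regulate many of these genes in breast cell lines, and KLK10 was first isolated as a gene expressed in normal breast epithelium and lost in many breast cancers.

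In these cells 3 of the 8 genes, KLK10, KLK11 and KLK12, rose after 24 h of estrogen, with either siRNA. Of the other genes 4 were tested and did not pass for estrogen at either time, and KLK5 was too low to test. KLK10 rose more with HER2 siRNA than with control siRNA, a call that some single arrays could undo. KLK10, KLK11 and KLK12 are direct neighbours: in the RefSeq order of the 15 tissue kallikrein genes on chromosome 19, which runs KLK1, KLK15, KLK3, KLK2, KLK4, KLK5, KLK6, KLK7, KLK8, KLK9, KLK10, KLK11, KLK12, KLK13 and KLK14, no other kallikrein lies between them. Because the genes that rose are adjacent, the DNA just before their start sites is shown. The windows hold the 250 bases before the first listed RefSeq start of each gene (GRCh38.p14, minus strand, written 5′ to 3′), and capitals mark SP1 sites, searched as GGGCGG on both strands. They lie at chr19:51019710-51019959 for KLK10, chr19:51026617-51026866 for KLK11 and chr19:51035003-51035252 for KLK12.
KLK10: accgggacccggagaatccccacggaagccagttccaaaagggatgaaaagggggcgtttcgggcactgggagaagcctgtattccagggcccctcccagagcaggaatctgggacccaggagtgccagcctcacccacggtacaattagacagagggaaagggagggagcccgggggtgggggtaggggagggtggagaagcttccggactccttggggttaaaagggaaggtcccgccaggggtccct
KLK11: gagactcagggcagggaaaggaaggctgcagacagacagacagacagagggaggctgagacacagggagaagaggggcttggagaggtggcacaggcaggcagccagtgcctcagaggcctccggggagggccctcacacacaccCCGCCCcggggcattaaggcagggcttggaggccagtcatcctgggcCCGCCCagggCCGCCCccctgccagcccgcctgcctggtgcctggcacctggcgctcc
KLK12: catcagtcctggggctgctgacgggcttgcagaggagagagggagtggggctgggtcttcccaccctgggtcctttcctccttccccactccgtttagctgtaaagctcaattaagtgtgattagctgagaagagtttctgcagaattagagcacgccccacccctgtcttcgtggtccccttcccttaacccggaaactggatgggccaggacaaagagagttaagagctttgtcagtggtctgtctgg
The KLK11 window held 3 SP1 sites, and the KLK10 and KLK12 windows held none. The second listed start of KLK11 has a window without an SP1 site, as has the second of KLK10. Of 35116 RefSeq promoter windows of this length 42.6% held at least 1.

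Searches on both strands of the same windows covered 5 other motifs. The palindromic estrogen response element, GGTCA and TGACC spaced by any 3 bases, was in none of the 12 windows that RefSeq lists for 7 of the 8 genes, and in 0.0399% of all windows. Its single arm GGTCA, which the full element contains, was in 32.6% of all windows. It was absent from the windows of KLK5, KLK6, KLK7, KLK10, KLK11 and KLK12 and found in both windows of KLK13. The AP-1 site TGANTCA (6.57% of all windows), the TATA box TATAAA (10.7%) and the progesterone and androgen element, AGAACA and TGTTCT spaced by any 3 bases (0.00285%), were absent from all 12 windows of the 7 genes. SP1 sites were also found in the windows of KLK6, KLK7 and KLK13, and none in that of KLK5. The part of any motif in the estrogen response was not tested. These matches describe letters in a short window only.

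KLK10, the member first known as NES1, was near or just above background without estrogen and rose with it at 24 h. With control siRNA and vehicle at 24 h its log2 levels were 4.55, 4.63 and 4.56, and with estrogen 5.55, 5.61 and 5.61. With HER2 siRNA they were 5.21, 4.89 and 4.98 in vehicle and 6.96, 7.46 and 7.84 in estrogen. The 3 arrays with HER2 siRNA and estrogen at 24 h were the highest of all 24, followed by the 3 with control siRNA and estrogen at 24 h, and estrogen and vehicle arrays did not overlap within either siRNA at 24 h. The estrogen effect at 24 h was 1.01 ± 0.16 (log2 difference ± standard error) with control siRNA, a 2.01-fold rise (95% interval 1.59 to 2.54, adjusted p = 0.000207). With HER2 siRNA it was 2.39 ± 0.16, or 5.26-fold (4.16 to 6.64, adjusted p = 1.72e-09). The vehicle arrays with control siRNA all lay under 5, near background, so these are folds of array signal and set no exact fold of the transcript.

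KLK11, a trypsin-like member also known from prostate and brain, was above background in every array. In control siRNA cells at 24 h the vehicle arrays stood at 5.83, 5.96 and 5.87 and the estrogen arrays at 7.08, 7.69 and 7.91. In HER2 siRNA cells they stood at 6.22, 6.08 and 6.01 in vehicle and at 8.24, 8.99 and 9.07 in estrogen. The lowest estrogen array at 24 h was above every array of the 6 other groups. The estrogen effect was 1.67 ± 0.18 with control siRNA (3.19-fold, 2.46 to 4.14, adjusted p = 2.44e-06) and 2.67 ± 0.18 with HER2 siRNA (6.34-fold, 4.88 to 8.24, adjusted p = 1.72e-09).

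KLK12, a trypsin-like member that in biochemical work can activate KLK11, was likewise above background in every array. At 24 h its levels with control siRNA were 6.52, 6.52 and 6.31 in vehicle and 7.31, 7.72 and 8.08 in estrogen. With HER2 siRNA they were 6.51, 6.62 and 6.36 in vehicle and 7.58, 7.86 and 8.32 in estrogen. The 6 estrogen arrays at 24 h stood above the other 18, but those of one siRNA overlapped those of the other. Estrogen raised KLK12 by 1.25 ± 0.15 with control siRNA (2.38-fold, 1.91 to 2.97, adjusted p = 9.29e-06) and by 1.42 ± 0.15 with HER2 siRNA (2.68-fold, 2.15 to 3.34, adjusted p = 1.78e-06).

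**Figure D1:**
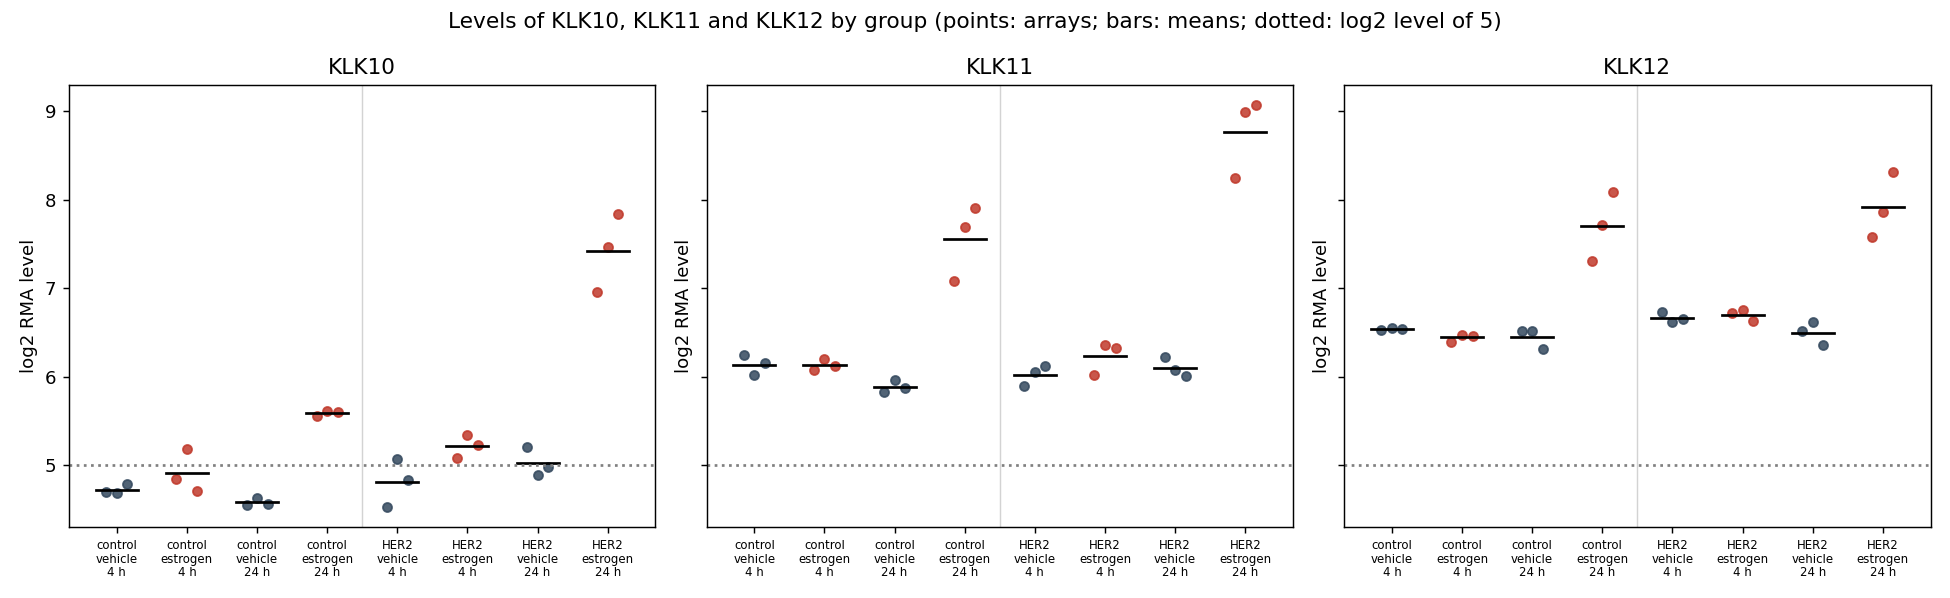
Log2 RMA levels of KLK10, KLK11 and KLK12 in the 8 groups; each point is 1 array, each bar a group mean, and the dotted line marks a level of 5. The estrogen arrays at 24 h stand above all others for each gene, reaching 7.84 for KLK10, 9.07 for KLK11 and 8.32 for KLK12.

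Estrogen at 24 h thus raised 3 of the 7 kallikreins tested with each siRNA. Over all 14335 genes tested, 7.01% were called higher with control siRNA and 4.28% with HER2 siRNA. Ordered by their difference from the highest, KLK10, KLK11 and KLK12 held ranks 65, 23 and 46 with control siRNA and ranks 17, 9 and 51 with HER2 siRNA. The median difference of the 7 genes was 0.32 with control siRNA and 0.04 with HER2 siRNA, against -0.01 and 0.00 over all genes. The estrogen effects on KLK10, KLK11 and KLK12 at 24 h passed the threshold under every alternative that tested them and without each array in turn. Averaging KLK10 with its dimmer probe set lowered its effects to 0.54 with control siRNA and 1.23 with HER2 siRNA.

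After 4 h of estrogen no kallikrein passed the test. KLK11 stood at 6.07, 6.20 and 6.12 with estrogen against 6.24, 6.01 and 6.15 with vehicle in control siRNA cells, and at 6.02, 6.36 and 6.32 against 5.90, 6.05 and 6.12 in HER2 siRNA cells. KLK12 ran from 6.40 to 6.48 with estrogen and from 6.53 to 6.54 with vehicle in control siRNA cells, and from 6.63 to 6.75 and 6.62 to 6.73 in HER2 siRNA cells. These ranges lie on or beside each other, and no group stands out as the 24 h estrogen groups do. KLK10 in HER2 siRNA cells stood at 5.08, 5.34 and 5.22 with estrogen and 4.53, 5.06 and 4.84 with vehicle; the arrays did not overlap, but the difference of 0.40 ± 0.16 (95% interval 0.07 to 0.74) had an adjusted p of 0.545. By limma 0 of 7 genes were called with either siRNA, and at an unadjusted p under 0.05 there were 0 with control siRNA and 1 with HER2 siRNA. All-gene calls at 4 h were 0.342% and 0.698%. The array whose source name gives 24 h had levels of 5.22 for KLK10, 6.32 for KLK11 and 6.63 for KLK12, below every 24 h estrogen array of either siRNA.

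The change of the estrogen effect with time was tested directly, averaged over the siRNAs. Between 4 and 24 h the effect grew by 1.41 ± 0.16 for KLK10 (adjusted p = 3.76e-05), by 2.07 ± 0.18 for KLK11 (adjusted p = 5.60e-07) and by 1.37 ± 0.15 for KLK12 (adjusted p = 2.60e-05). These were 3 of 7 kallikreins, beside 2.11% of all genes called higher. The other 4 tested differed by -0.08 to 0.05, with a lowest adjusted p of 0.847.

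**Figure D2:**
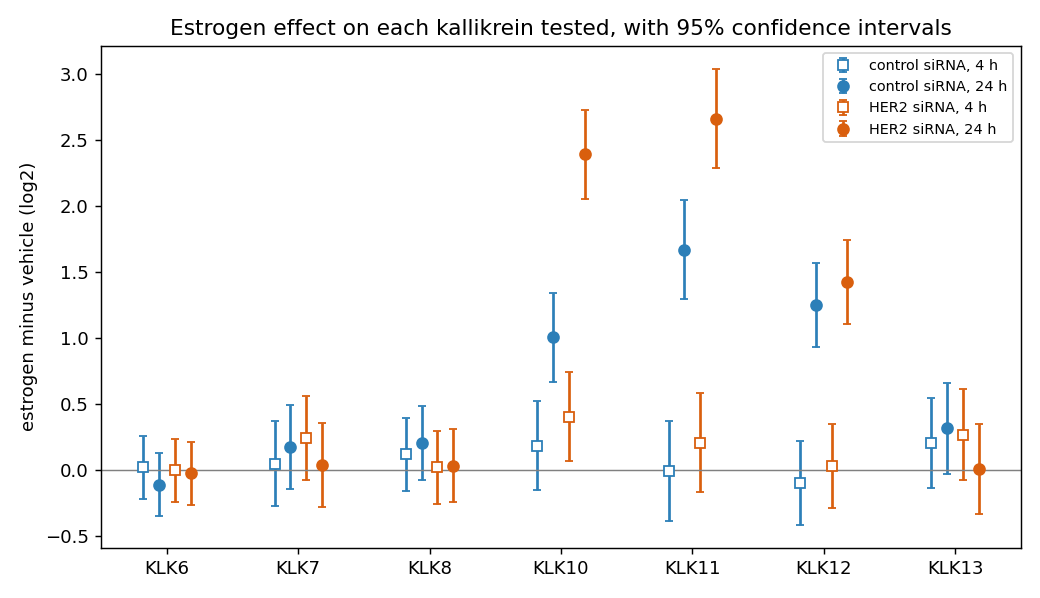
Estrogen minus vehicle (log2) for the 7 kallikreins tested, by siRNA and time, with 95% confidence intervals. At 24 h KLK10, KLK11 and KLK12 lie between 1.01 and 2.67, while at 4 h the 7 genes lie between -0.10 and 0.40.

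Time in culture was compared within each treatment as well. From 4 to 24 h in vehicle, no kallikrein was called by limma with control siRNA, beside 0.781% of all genes, or with HER2 siRNA, beside 6.46%. In estrogen KLK10, KLK11 and KLK12 were higher at 24 h with both siRNAs. With control siRNA the differences were 0.68 ± 0.16 for KLK10 (adjusted p = 0.0161), 1.43 ± 0.18 for KLK11 (adjusted p = 6.27e-05) and 1.26 ± 0.15 for KLK12 (adjusted p = 3.94e-05), where 2.53% of all genes were called higher. With HER2 siRNA they were 2.21 ± 0.16, 2.54 ± 0.18 and 1.22 ± 0.15, beside 3.06% of all genes. These comparisons share their 24 h estrogen arrays with the estrogen effects above. The KLK10 difference with control siRNA missed the threshold when its probe sets were averaged (0.35, adjusted p = 0.0889) and without control siRNA estrogen replicate 1 or 3 at 4 h or replicate 2 or 3 at 24 h (adjusted p 0.0572 to 0.0747).

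Whether the estrogen response at 24 h differed between the siRNAs was tested as a difference of the 2 effects. For KLK10 the effect was larger with HER2 siRNA by 1.39 ± 0.23 (95% interval 0.91 to 1.86, adjusted p = 0.0132), which is rank 6 of all genes. Its control siRNA vehicle arrays at 24 h all lay under 5, near background, so this is a difference of array signal only. For KLK11 the difference was 0.99 ± 0.26 (0.46 to 1.53, adjusted p = 0.252), and for KLK12 it was 0.17 ± 0.22 (-0.28 to 0.62, adjusted p = 0.991). Over the alternatives the KLK12 difference ran from -0.0686 to 0.44 and passed under none of them. So 1 of 7 kallikreins was called, beside 9 genes in all (0.0628% of those tested), 7 of them higher (0.0488%). The KLK10 call was lost without HER2 siRNA vehicle 24 h replicate 2 (1.32, adjusted p = 0.0616), without HER2 siRNA estrogen 24 h replicate 2 (1.36, adjusted p = 0.0562), without the 3 arrays whose label numbers stand apart, which are replicate 1 of control siRNA at 24 h in vehicle and in estrogen and of HER2 siRNA in estrogen at 4 h (1.38, adjusted p = 0.0947), with only the 4 groups compared in the fit (adjusted p = 0.102) and with averaged probe sets (0.69, adjusted p = 0.196). KLK11 gained a call without HER2 siRNA estrogen 24 h replicate 1 (1.26, adjusted p = 0.0140). At 4 h limma called 0 of 7 kallikreins and 0 genes in all, and 403 genes had an unadjusted p under 0.05, none of them a kallikrein tested here.

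HER2 siRNA against control siRNA was compared in each condition. In estrogen at 24 h KLK10 was higher by 1.83 ± 0.16, or 3.56-fold (2.82 to 4.50, adjusted p = 1.05e-08), and KLK11 by 1.21 ± 0.18, or 2.31-fold (1.78 to 3.00, adjusted p = 1.33e-05). Arrays of the siRNAs did not overlap for either gene. KLK12 differed by 0.22 ± 0.15 (adjusted p = 0.287), with overlapping arrays. It passed the threshold with its probe sets averaged (0.49, adjusted p = 0.0430) and without control siRNA estrogen 24 h replicate 3 (0.41, adjusted p = 0.0345). These 2 of 7 genes called higher stand beside 21.5% of all genes tested.

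In vehicle at 24 h KLK10 was higher with HER2 siRNA by 0.45 ± 0.16 (adjusted p = 0.0322), beside 19.7% of all genes called higher. That call was lost without the 3 arrays numbered apart (adjusted p = 0.0888), with averaged probe sets (adjusted p = 0.131) and without any 1 of the 3 control siRNA vehicle arrays or of HER2 siRNA vehicle replicates 1 and 3 at 24 h (adjusted p 0.0533 to 0.130). In vehicle at 4 h KLK7, the chymotrypsin-like member, stood at 5.29, 5.26 and 5.18 with control siRNA and at 4.97, 4.97 and 4.59 with HER2 siRNA. The HER2 siRNA arrays all lay under 5, near background. Arrays of the siRNAs did not overlap, and the difference was -0.40 ± 0.15 (adjusted p = 0.0491), where 17.8% of all genes were called lower. That call missed the threshold in 15 of the 24 fits that left out an array (adjusted p 0.0512 to 0.249). In estrogen at 4 h limma called 0 of 7 kallikreins, also 0 at an unadjusted p under 0.05, while 34.1% of all genes were called.

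Averaged over the 4 conditions, HER2 siRNA went with higher KLK10 by 0.67 ± 0.08 (adjusted p = 2.77e-07) and higher KLK11 by 0.35 ± 0.09 (adjusted p = 0.00186). KLK12 differed by 0.16 ± 0.08 (adjusted p = 0.0765), and passed without control siRNA estrogen 24 h replicate 3 (adjusted p = 0.0117) or HER2 siRNA estrogen 24 h replicate 1 (adjusted p = 0.0177). These 2 of 7 higher calls compare with 30.1% of all genes, so their share is near the background. For KLK11 the siRNA differences in the other 3 conditions were -0.11, 0.22 and 0.10, none past the threshold, so the mean came mostly from estrogen at 24 h. Tested directly as a mean over vehicle and estrogen, the siRNA effect was larger at 24 than at 4 h for KLK10, by 0.94 ± 0.16 (adjusted p = 0.00283), and for KLK11, by 0.72 ± 0.18 (adjusted p = 0.0346), beside 1.73% of all genes. At 24 h the siRNA differences were 0.45 in vehicle and 1.83 in estrogen for KLK10, and 0.22 and 1.21 for KLK11. For KLK12 the siRNA effect differed between the times by -0.06 ± 0.15 (adjusted p = 0.899). The KLK11 difference was lost without the 3 arrays numbered apart (0.53, adjusted p = 0.0864), with array weights (adjusted p = 0.0687) and without each of 12 arrays in turn (adjusted p 0.0504 to 0.0676).

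Other measures moved with the siRNA. The GAPDH difference between 3′ and 5′ probe sets, a sign of RNA quality, had group means of 0.267 to 0.362 with control siRNA and 0.410 to 0.461 with HER2 siRNA. With it as a covariate, KLK11 averaged over conditions was 0.32 (adjusted p = 0.0905) and KLK10 in vehicle at 24 h was 0.35 (adjusted p = 0.131), both past the threshold no longer, while the KLK10 and KLK11 differences in estrogen at 24 h stayed past it. Of the 6 basal and mesenchymal markers with a probe set 3 were tested, and TWIST1 (1.67 ± 0.05) and VIM (0.29 ± 0.10) were higher with HER2 siRNA, while CDH2 differed by -0.13 ± 0.10 (adjusted p = 0.317). The summed log2 level of the 6 ranged from 36.2 to 38.1 over control siRNA arrays and from 37.6 to 40.4 over HER2 siRNA arrays, with KRT5, KRT14 and ZEB1 under 5. With estrogen at 24 h VIM rose by 0.76 with control siRNA and 0.79 with HER2 siRNA, TWIST1 differed by -0.49 and -0.29 and CDH2 by -0.58 and -0.18. Of 4 fibroblast markers COL1A1 was higher with HER2 siRNA (0.35 ± 0.07), and the other 3 were under 5. The summed level of these 4 ranged from 22.0 to 23.5 with control siRNA and from 22.9 to 23.6 with HER2 siRNA. Of 3 endothelial markers VWF was lower (-0.32 ± 0.07), with a summed level of 16.5 to 17.4 against 15.9 to 16.8. Of the 8 luminal markers 1 was higher with HER2 siRNA, GATA3 (0.53 ± 0.04). Another 4 were lower: ERBB2, the siRNA target, KRT8 (-0.15), KRT18 (-0.15) and KRT19 (-0.26). Over all genes 30.1% were called higher and 29.1% lower. The summed level of the 8 was 96.50 to 99.05 with control siRNA against 94.99 to 97.27 with HER2 siRNA. Estrogen at 24 h lowered GATA3 (-0.95 and -0.34) and FOXA1 (-0.40 and -0.32) with control and HER2 siRNA. KRT19 rose with estrogen at 24 h in HER2 siRNA cells (0.35, adjusted p = 0.0188) and differed by 0.04 in control siRNA cells. Since the GAPDH difference moved with the siRNA, the fit with it as a covariate cannot separate the 2. The part of the other measures in the kallikrein differences was not tested.

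No call for estrogen was made for the remaining members. KLK6, a trypsin-like protease known from brain and ovary, ranged from 5.58 to 6.09 over the 24 arrays, and its group means spanned 0.15, less than the largest standard deviation within a group (0.22). KLK7 ranged from 4.59 to 5.46 with group means spanning 0.46, and apart from the difference in vehicle at 4 h it passed no test. KLK13, a trypsin-like member found in testis and squamous epithelia, ranged from 4.57 to 5.47 with group means spanning 0.35. The largest standard deviation within a group was 0.34 for KLK7 and 0.33 for KLK13, so these spans are of the size of the spread between arrays. Both genes had a mean of 5.05, just above background, and reached 5 in 15 arrays (KLK7) and 13 arrays (KLK13).

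KLK8, also called neuropsin and known from hippocampus and skin, was near background with a mean of 4.90. It ranged from 4.43 to 5.19 and reached 5 in 4 arrays, which let it pass the filter. KLK5, the trypsin-like protease that starts the skin cascade, was below 5 in all 24 arrays (4.09 to 4.83) and was not tested, so its groups were not compared. At 24 h the estrogen differences of KLK6, KLK7, KLK8 and KLK13 lay between -0.11 and 0.32 with control siRNA (lowest adjusted p 0.229) and between -0.02 and 0.04 with HER2 siRNA (lowest adjusted p 0.957). KLK10 reached 5 in 12 arrays, and in 6 when the 24 h estrogen groups are set aside.

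**Figure D3:**
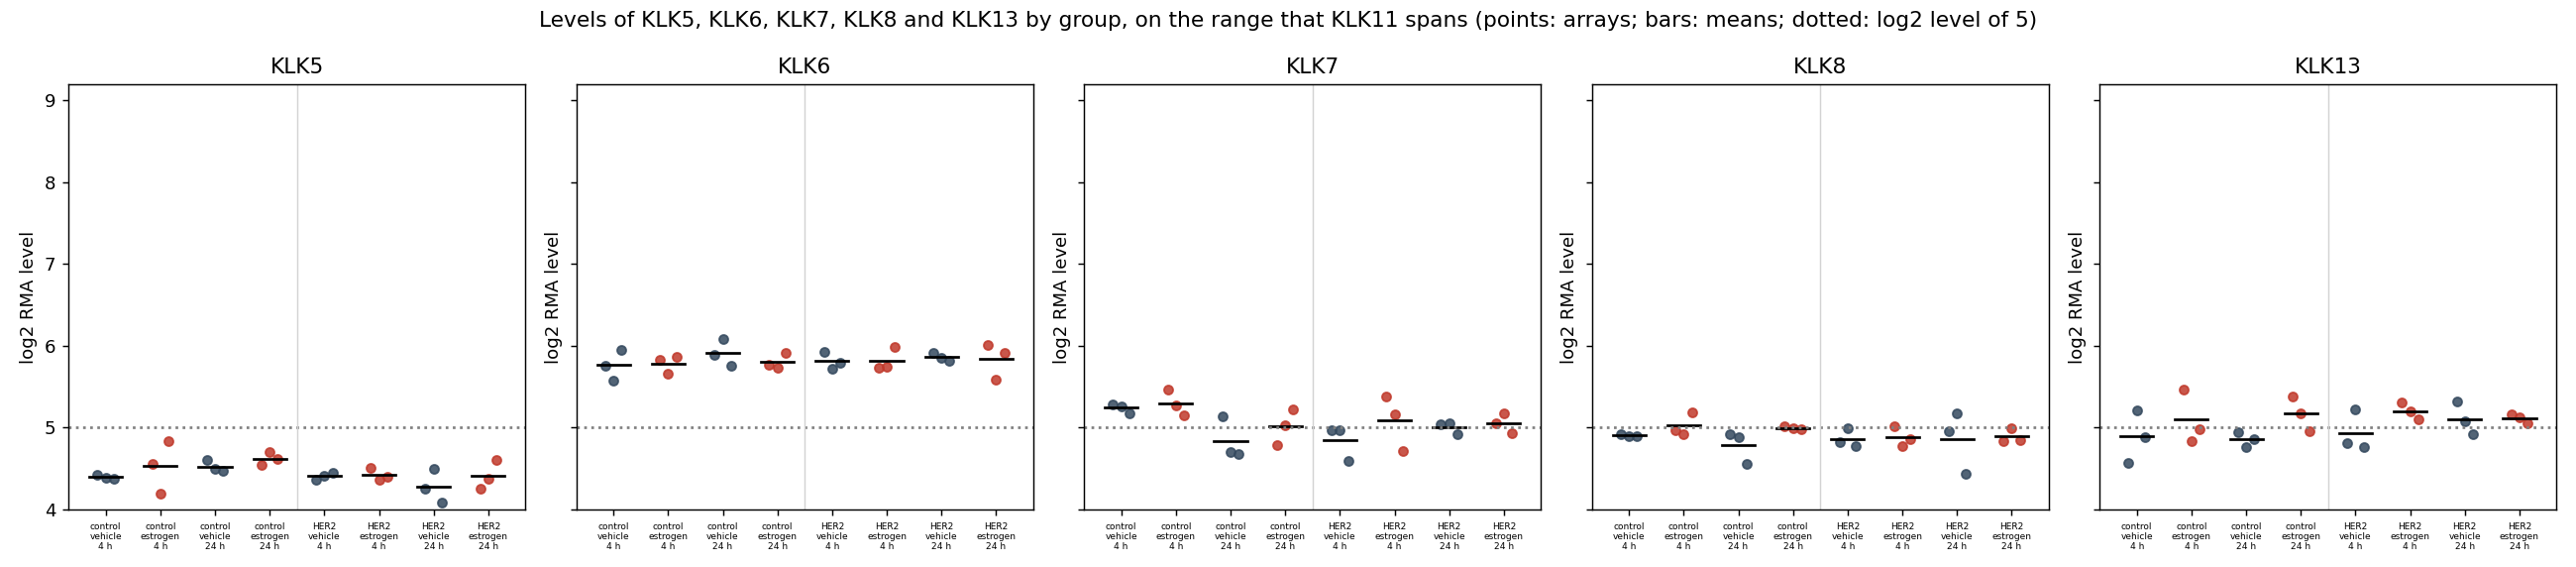
Log2 RMA levels of KLK5, KLK6, KLK7, KLK8 and KLK13 in the 8 groups, drawn on the range that KLK11 spans; points are arrays, bars group means and the dotted line a level of 5. KLK5 stays below 5 in every array, and group means of the 5 genes span 0.15 to 0.46.

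Several genes have more than 1 probe set, which gives a second reading of the same arrays. KLK12 has 3, and the 2 not chosen also rose with estrogen at 24 h. Probe set 233586_s_at rose by 1.70 ± 0.25 with control siRNA and 2.43 ± 0.25 with HER2 siRNA (adjusted p = 0.000165 and 2.27e-06), and 220782_x_at by 1.70 ± 0.23 and 2.13 ± 0.23 (adjusted p = 5.67e-05 and 3.54e-06), in a fit of 32771 probe sets. Between the siRNAs the effects of these 2 lay further apart than those of the chosen 234316_x_at (1.25 and 1.42). All 3 thus rose in both siRNAs. For the siRNA difference in estrogen at 24 h they were 0.22 (adjusted p = 0.317) for the chosen 234316_x_at, 0.77 ± 0.25 (adjusted p = 0.0207) for 233586_s_at and 0.49 ± 0.23 (adjusted p = 0.104) for 220782_x_at, so here the probe sets of KLK12 disagreed on the call. Names ending in _x_at mark probes that can bind other transcripts, close relatives included.

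KLK10 has a second probe set, 215808_at, that never passed the filter, with group means of 3.95 to 4.10 and estrogen differences at 24 h of 0.08 and 0.07. The KLK10 result therefore rests on 209792_s_at. The other probe sets of KLK7 and KLK8 were below the filter, and none of the 3 probe sets of KLK13 passed the test for estrogen at 24 h. KLK5, KLK6 and KLK11 have 1 probe set each.

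**Figure D4:**
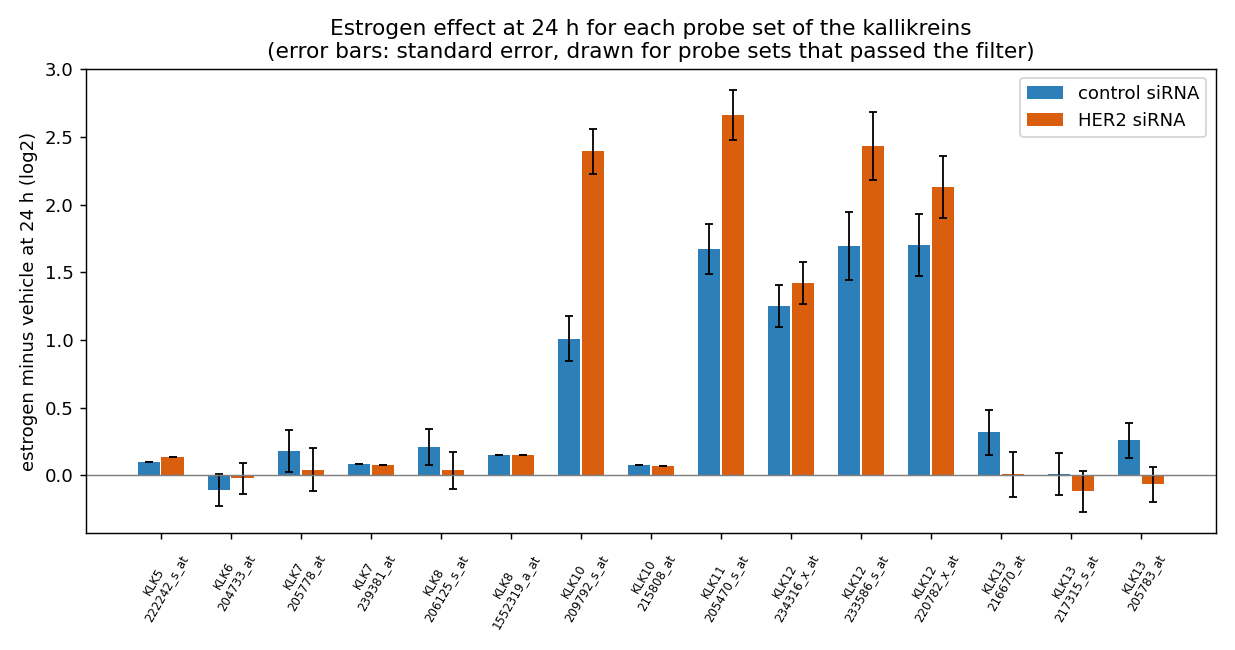
Estrogen minus vehicle at 24 h (log2) for every probe set of the kallikreins by siRNA; bars start at 0 and error bars are standard errors, drawn where the probe set passed the filter. All 3 probe sets of KLK12 rise, from 1.25 to 2.43, while KLK10 215808_at stays at 0.08 and 0.07.

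Across the 24 arrays KLK10, KLK11 and KLK12 varied together. Pearson's r was 0.947 between KLK10 and KLK11, 0.951 between KLK11 and KLK12 and 0.847 between KLK10 and KLK12, and the next highest among the 8 genes was 0.564, between KLK5 and KLK8. These values describe arrays that share treatments and have no test. For each member whose group means span at least 1, the 3 tested genes with the highest r were taken. Those of KLK10 were DSCAM-AS1 (0.959), a long noncoding RNA of luminal breast cancer cells, PCDH19 (0.954), a cell adhesion protein, and MRPL16 (0.952), a mitochondrial ribosomal protein. DSCAM-AS1 rose by 1.05 with control siRNA and 2.58 with HER2 siRNA with estrogen at 24 h, PCDH19 by 0.48 and 1.66, and MRPL16 by 0.54 and 1.07. These genes were picked for sharing the pattern of KLK10 over the same arrays, so their values are a description.

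KLK11 was most like THSD4 (0.957), a secreted protein with thrombospondin repeats, then KLK12 and KLK10. KLK12 was most like KLK11, then DHRS2 (0.949), a dehydrogenase, and THSD4 (0.934). THSD4 rose by 1.32 with control siRNA and 1.62 with HER2 siRNA, and DHRS2 by 0.76 and 0.72. Of all genes tested 10 had an r over 0.9 with KLK10, 18 with KLK11 and 7 with KLK12.

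The rest of the kallikrein system was read from lists of genes. Of the other 7 tissue kallikreins, 6 had a probe set of their own and were tested, and limma called none for the averaged siRNA effect or for estrogen at 24 h with either siRNA. For the siRNA 30.1% of all genes were called higher and 29.1% lower. For estrogen these shares were 7.01% and 6.52% with control siRNA, and 4.28% and 1.90% with HER2 siRNA. KLK4, whose siRNA difference had the lowest adjusted p, was at -0.10 ± 0.05 (adjusted p = 0.0602), and KLK14, at the end of the cluster, at 0.12 ± 0.08 (adjusted p = 0.219). KLK3, which encodes prostate-specific antigen, differed by 0.07 ± 0.07 (adjusted p = 0.421). Among 3 tested neighbours of the locus that are not kallikreins, ACP4, a testicular acid phosphatase, rose with estrogen at 24 h in control siRNA cells (0.36 ± 0.10, adjusted p = 0.0172). In HER2 siRNA cells ACP4 did not pass (0.04, adjusted p = 0.941). CLEC11A, a secreted growth factor, was higher with HER2 siRNA (0.36 ± 0.06, adjusted p = 3.81e-05), beside 30.1% of all genes. The median of the other kallikreins was 0.02 for the siRNA and 0.09 and 0.03 for estrogen with control and HER2 siRNA, against 0.00, -0.01 and 0.00 over all genes.

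Of 8 kallikrein inhibitors tested, 2 were higher with HER2 siRNA, beside 30.1% of all genes. These were SPINT1 (0.66 ± 0.05, adjusted p = 3.62e-10), a membrane inhibitor of matriptase and related proteases, and SERPINF2 (0.13 ± 0.05, adjusted p = 0.0241), the plasmin inhibitor. With estrogen at 24 h in control siRNA cells, SERPINA3, a serpin that traps chymotrypsin-like proteases, rose by 0.61 ± 0.18 (adjusted p = 0.0232), while SPINT1 fell by 0.42 ± 0.10 on the log2 scale (adjusted p = 0.00917). In HER2 siRNA cells estrogen called none of the 8. The all-gene shares were 7.01% higher and 6.52% lower with control siRNA, and 4.28% and 1.90% with HER2 siRNA. The median of the 8 was 0.04 for the siRNA, against 0.00 over all genes.

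Of 11 activating and partner proteases, 2 were higher and 2 lower with HER2 siRNA, beside 30.1% and 29.1% of all genes. CTSL, a lysosomal cysteine protease, was higher by 0.80 ± 0.05 and PRSS8, or prostasin, by 0.66 ± 0.05. The type II membrane proteases ST14, or matriptase, and TMPRSS4 differed by -0.35 ± 0.03 and -0.52 ± 0.06. Estrogen at 24 h lowered PRSS8 (-0.53 with control siRNA and -0.54 with HER2 siRNA) and TMPRSS2 (-0.47 and -0.70), another membrane serine protease, and called no member higher. Over all genes 6.52% were called lower with control siRNA and 1.90% with HER2 siRNA. The median of the 11 was -0.06 for the siRNA. Of 6 protease-activated receptors and adhesion substrates tested, 2 were higher and 1 lower with HER2 siRNA, a share near that of all genes (30.1% and 29.1%). DSG2 and DSC2, desmosomal cadherins, differed by 0.58 ± 0.05 and -0.33 ± 0.04, and CDH1, the epithelial cadherin, by 0.09 ± 0.03. Estrogen lowered DSC2 with both siRNAs (-0.46 and -0.28). The median of these 6 was 0.04 for the siRNA.

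In squamous epithelia kallikreins go with terminal differentiation, and 16 genes of that program were tested. With HER2 siRNA 6 were lower and 1 higher, beside 29.1% of all genes lower and 30.1% higher. CALML5, a calcium-binding protein of keratinocytes, differed by -1.04 ± 0.05, S100A8 by -0.83 ± 0.14 and IVL, a cornified envelope precursor, by -0.44 ± 0.09. The median of the 16 was -0.03. With estrogen at 24 h 1 of the 16 was lower in each siRNA, the epithelial transcription factor ELF3 (-0.64 and -0.90). None was higher. Over all genes 6.52% were called lower and 7.01% higher with control siRNA, and 1.90% and 4.28% with HER2 siRNA.

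Among 6 steroid hormone receptors tested, 3 were higher and 1 lower with HER2 siRNA, beside 30.1% and 29.1% of all genes. The glucocorticoid receptor NR3C1 was higher by 1.08, the mineralocorticoid receptor NR3C2 by 1.12 and the progesterone receptor PGR by 0.91 ± 0.13 (adjusted p = 1.90e-06), while the vitamin D receptor VDR differed by -0.73. PGR, a classical estrogen target, rose with estrogen at 24 h by 2.50 ± 0.25 with control siRNA and 2.44 ± 0.25 with HER2 siRNA (adjusted p = 1.21e-06 and 1.26e-06). With control siRNA estrogen also called NR3C1 (-0.33, adjusted p = 0.0417) and NR3C2 (-0.61, adjusted p = 0.0352) lower. The all-gene shares for estrogen were 7.01% higher and 6.52% lower with control siRNA, and 4.28% and 1.90% with HER2 siRNA. The median of the 6 was 0.46 for the siRNA. The estrogen receptor ESR1 differed between the siRNAs by -0.06 ± 0.08 (adjusted p = 0.570).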

How the data were processed

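Total RNA of BT-474 cells was measured on 24 Affymetrix HG-U133 Plus 2.0 arrays, which are labelled from the 3′ end. The deposited values are log2 levels that the authors made by RMA, per the submitters' processing notes; the version was not given in the sources used here. Of 54675 probe sets 41091 have 1 gene symbol, 1801 several, 11721 none in the annotation table and 62 are controls. Each of 19775 genes took its probe set with the highest mean, and 14335 with a log2 level of at least 5 in at least 3 arrays were tested.

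Group means were fitted to all arrays together in limma 3.58.1 (R 4.3.3, total degrees of freedom 20.9), for 17 comparisons. Benjamini-Hochberg adjustment ran over all genes tested in each comparison, with a threshold of 0.05. Figures were drawn with Python 3.11.15. Promoter windows came from RefSeq (GRCh38.p14), which had entries for 7 of the 8 genes. No probe position was used, since the files name no build.

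The members and lists were chosen with earlier results of these data known. Beside the 8 genes the text names up to 4 genes per list by the smallest adjusted p, for the averaged siRNA effect and for estrogen at 24 h with control siRNA, and the 3 genes most correlated with each member whose group means span at least 1. Cell type markers and ESR1 were named after their values were seen. The lists were other tissue kallikreins, inhibitors, partner proteases, receptors and adhesion substrates, squamous differentiation, steroid receptors and neighbours of the locus.

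Arrays with the same replicate number were compared by their deviations from group means. The median correlation of such pairs was 0.205 (60 of 84 exceeded 0.1), and that of pairs with different numbers -0.107. Deviations within a group cancel out, so the second value is tied to the first and is no separate contrast. In 5 of 12 contrasts of 2 groups every same-number pair exceeded 0.1. The alternatives were dropping or raising the filter, a replicate block, leaving out the 3 arrays of replicate 1 whose label numbers stand apart, averaged or separate probe sets, other scalings, array weights, an intensity trend, only the groups compared, the GAPDH covariate and leaving out each array.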

Additional observations from a re-analysis of the deposited data

Results flagged for a closer look

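The size of an effect differed between conditions, by a test of the difference itself, for 3 of the kallikreins. The estrogen effect on KLK10 at 24 h was larger with HER2 siRNA than with control siRNA by 1.39 ± 0.23 (adjusted p = 0.0132). The siRNA difference, averaged over vehicle and estrogen, was larger at 24 than at 4 h by 0.94 ± 0.16 for KLK10 (adjusted p = 0.00283) and by 0.72 ± 0.18 for KLK11 (adjusted p = 0.0346). The estrogen effect, averaged over the siRNAs, was larger at 24 than at 4 h by 1.41 ± 0.16 for KLK10, by 2.07 ± 0.18 for KLK11 and by 1.37 ± 0.15 for KLK12 (adjusted p = 3.76e-05, 5.60e-07 and 2.60e-05). Groups of 3 arrays were not tested for a single array that stands apart. The causes were not tested.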

How the results depend on the processing

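Each comparison was repeated under 12 alternatives and without each of the 24 arrays in turn. The counts of kallikreins called for estrogen at 24 h (3 with each siRNA) and for the change of the estrogen effect with time (3) fell to 2 at the lowest, under the stricter filter, which leaves KLK10 untested; they stayed at 3 without any 1 array. For the averaged siRNA effect the count of 2 was 1 under the stricter filter and 1 with the GAPDH covariate, and 2 to 3 without each array. In vehicle at 4 h the count of 1 was 0 with no filter, the stricter filter, averaged probe sets, every probe set on its own, array weights and the intensity trend, and 0 to 1 without each array. In vehicle at 24 h it was 0 instead of 1 under the stricter filter, without the 3 arrays numbered apart, with averaged probe sets and with the GAPDH covariate, and 0 to 1 without each array. In estrogen at 4 h it was 1 instead of 0 with only the groups compared in the fit. In estrogen at 24 h the count of 2 was 1 under the stricter filter, 3 with averaged probe sets and 2 to 3 without each array. For the difference of estrogen effects at 24 h the count of 1 was 0 under the stricter filter, without the 3 arrays, with averaged probe sets and with only the groups compared, and 0 to 2 without each array. For the change of the siRNA effect with time the count of 2 was 1 under the stricter filter and with array weights, and 1 to 2 without each array. From 4 to 24 h in estrogen with control siRNA it was 2 to 3 without each array. KLK12 changed sign in comparisons it did not pass. Its difference of estrogen effects at 24 h was -0.0612 without the 3 arrays and -0.0686 with array weights. That difference reached 0.44 at the highest of the alternatives, and ran from -0.0281 to 0.36 without each array. The KLK12 change of the siRNA effect with time was 0.17 with averaged probe sets and -0.16 to 0.0332 without each array. The replicate block changed no call: the KLK10 difference of estrogen effects kept its value of 1.39 (adjusted p = 0.00620), and the count with the block was 3 for estrogen at 24 h with each siRNA. Where no value shows it, the cause was not tested. Low signal limits KLK5, KLK7, KLK8, KLK13 and the KLK10 levels outside the 24 h estrogen groups.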

Other observations

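Probe set 233687_s_at is annotated to both KLK9 and KLK8 and so stands for neither. Its mean log2 level was 5.80 over the 24 arrays. Its estrogen differences at 24 h were -0.12 ± 0.13 with control siRNA (adjusted p = 0.666) and 0.14 ± 0.13 with HER2 siRNA (adjusted p = 0.837), in the fit of every probe set. KLK9 lies next to KLK10 and has no probe set of its own among those used here.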
